A study of Homo sapiens with 10 samples.

Results

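The wild-type (WT) spheroid libraries of the series were 4 of its 10 RNA-seq libraries, and all 4 were chosen by their label, without use of any measured value. The series compared spheroids of T47D, an established cell line from a ductal breast carcinoma that is known as a luminal, hormone receptor positive line, with spheroids of its SAMHD1-KO clones A1 and A2. Every library of the series came from cells labelled T47D and grown as spheroids, so by the labels the parental line and the culture were common to all groups. The identity of the cells was not tested. The WT cells carried no SAMHD1 knock-out and received no drug or immune cells, and they were seeded in RPMI on low-attachment round-bottom plates and collected after 4 days. One WT library each came from experiments 10, 11, 15 and 16. The paper describes its RNA-seq samples as biological duplicates and does not link them to these experiment numbers. The labels do not say whether the 4 experiments were separate cultures, so the spread between them may be partly technical.

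Luminal cells line the ducts and lobules of the breast and face the lumen. They are known for the keratins KRT8, KRT18 and KRT19, for the adhesion proteins E-cadherin (CDH1) and EpCAM, and, in the hormone-responsive cells, for the estrogen and progesterone receptors, the prolactin receptor and the transcription factors GATA3 and FOXA1. Basal and myoepithelial cells surround them and carry other keratins, while mesenchymal cells typically use vimentin filaments and N-cadherin (CDH2) in place of keratins and E-cadherin.

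Levels are given as RPKM, the count per kilobase of merged exons and per 1000000 scaled counts, with the mean and SD over the 4 libraries. Total counts were 40077369 to 51311482 per library, over 13920 listed genes. The authors kept a gene only if its count was above 0 in each of the 10 libraries, so a gene that was not listed may still have had counts in WT and was not analysed here. Of the 13816 genes with a known exon length, 11173 (80.9%) reached 1 RPKM, 4111 (29.8%) reached 10, 277 (2.0%) reached 100 and 23 (0.166%) reached 1000. The median gene stood at 5.0 RPKM. Counts of 2 WT libraries differed beyond sampling noise in each pairing (a chi-square of 7.35 to 59.7 for each degree of freedom), so none was a copy of another.

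The luminal markers went against the label. Of 10 luminal markers (ESR1, PGR, GATA3, KRT8, PRLR, FOXA1, KRT18, KRT19, EPCAM and CDH1), 8 were listed, 2 of these 8 (GATA3 and KRT18) stood above the median of all genes, and 3 (ESR1, CDH1 and EPCAM) stood under 1 RPKM. With the longest transcript as gene length 1 (KRT18) stood above the median and 3 under 1 RPKM, and with the median transcript length 3 (GATA3, FOXA1 and KRT18) and 2 (ESR1 and EPCAM). The median of all genes rose to 7.01 and 19.5 RPKM with these lengths, while the bound of 1 RPKM was kept. CDH1, at 1.18 RPKM with the median transcript length, still ranked 12284. PRLR, the prolactin receptor, and KRT19 were not among the listed genes. The cells are therefore named here by their label, WT spheroids, and not by a luminal identity.

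The hormone receptors were low. ESR1, the estrogen receptor (NCBI gene 2099, GRCh38 chr6:151656672-152129619), had 44, 78, 16 and 16 counts in experiments 10, 11, 15 and 16, which gave 0.0692, 0.115, 0.0292 and 0.0225 RPKM, and it ranked 13637 of 13816. The libraries of experiments 15 and 16 were the low ones, and the ranges of the pairs of experiments did not overlap. PGR, the progesterone receptor and a classical target of the estrogen receptor (chr11:101029624-101129813), stood at 1.36, 1.15, 1.25 and 1.37 RPKM, a narrow range with 732 or more counts in each library that placed it at rank 10767. GATA3, a zinc finger factor of luminal cells (chr10:8045333-8075198), was at 6.06, 7.26, 6.03 and 6.1 RPKM, with experiment 11 above the rest. FOXA1, the pioneer factor that opens chromatin for the estrogen receptor, was at 3.18, 3.67, 4.27 and 4.34 RPKM.

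The epithelial keratins and adhesion genes were split between genes near the bottom of the ranking and genes above the median. KRT18 (chr12:52948855-52952906) was at 17.6, 19.6, 14.6 and 13.8 RPKM, and its usual partner in filaments, KRT8 (chr12:52897191-52949860), at 1.31, 1.2, 0.989 and 1.11 RPKM. KRT18 was thus 12.4 to 16.3 times KRT8 per length within a library, a ratio that fell to 7.61 to 9.96 with the longest transcript as length and to 4.09 to 5.36 with the median transcript length. The annotated ends of these neighbouring genes overlap, and the strand setting of the counting is not given in the sources used here, so reads of the shared bases cannot be assigned. CDH1 (chr16:68737292-68835537) had 46, 34, 70 and 59 counts and 0.163, 0.114, 0.288 and 0.187 RPKM, and EPCAM had 36, 34, 46 and 87 counts and 0.32, 0.284, 0.474 and 0.691 RPKM. Both stood under 1 RPKM in all 4 libraries.

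Among mesenchymal genes, VIM, which encodes vimentin (chr10:17228241-17237593), was one of the most abundant genes of the cells. It stood at 253, 292, 246 and 232 RPKM, rank 103 of 13816, which was 14.4 to 16.9 times KRT18 and 193 to 249 times KRT8 in the same library. CDH2, N-cadherin (chr18:27932879-28177130), stood at 13.6, 13.7, 14.8 and 15.9 RPKM, which was 51.3 to 120 times CDH1. The ranges of VIM and the keratins, and of CDH2 and CDH1, lay far apart in all 4 libraries. With the longest transcript as length VIM ranked 87 and CDH1 13028, and with the median transcript length they ranked 91 and 12284, and the range of the ratio of CDH2 to CDH1 over the libraries moved to 86.8 to 203 and to 22.3 to 52.4. VIM was up to 22.3 times KRT18 with the longest and 32.6 to 38.3 times with the median transcript length. VIM stayed above both keratins, and CDH2 above CDH1, under each length.

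**Figure D1:**
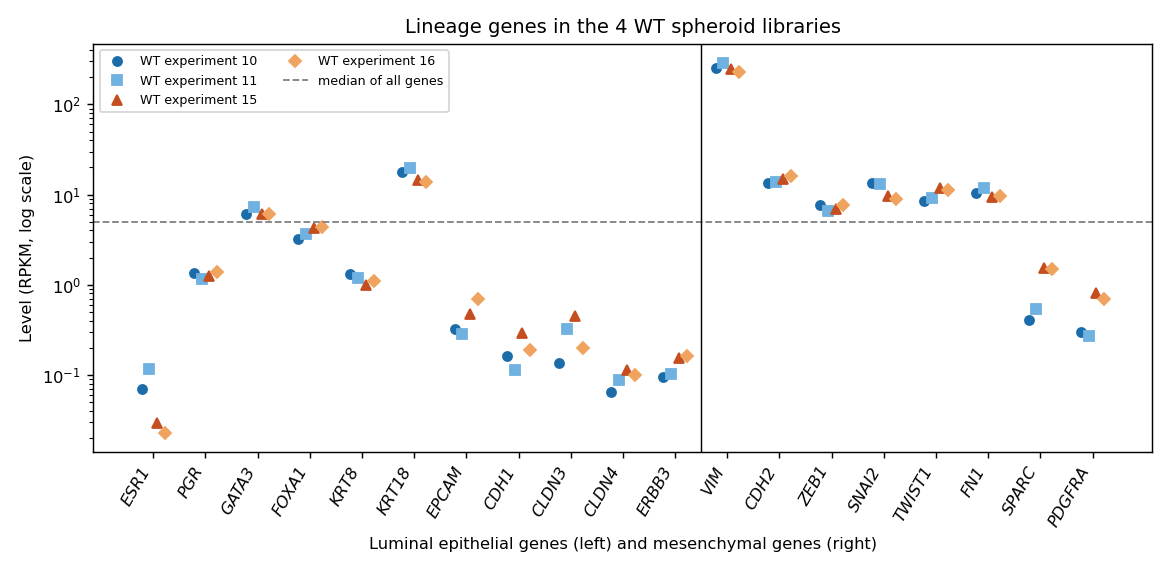
Level of luminal epithelial genes (left of the line) and mesenchymal genes (right) in each WT library, in RPKM on a log axis, with the median of all genes dashed. Of the genes on the left GATA3 and KRT18 lie above the median of 5.0 RPKM. ESR1, CDH1, EPCAM, CLDN3, CLDN4 and ERBB3 lie under 1, while VIM lies at 232 or more in all 4 libraries and CDH2 at 13.6 or more. The genes shown are a selection and not whole lists. Not shown are, for example, XBP1 (16.4) and CTNNA1 (31.4) of the luminal lists and COL1A1 (1.1) and SNAI1 (0.611) of the mesenchymal list.

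Beyond these, 15 of 22 luminal transcription factors were listed, with a median of 3.53 RPKM against 5.0 for all genes, and 12 reached 1 RPKM. XBP1, a factor of the secretory and unfolded protein response, led them at 16.4 ± 1.07 RPKM (SD, n = 4), followed by GATA3 and the AP-2 factors TFAP2A at 5.9 ± 0.463 and TFAP2C at 5.31 ± 0.474. The epithelial factors SPDEF, ELF3, EHF and GRHL2 were not among the listed genes. Of 27 luminal keratins and junction genes 21 were listed, with a median of 1.91 RPKM, and 6 reached 10. The catenins CTNNA1 (31.4 ± 2.18) and CTNNB1 (27.6 ± 0.643), which link classical cadherins such as CDH1 and CDH2 to actin, were the highest. The desmosomal cadherin DSG2 stood at 14.2 ± 0.874. The claudins CLDN3 (0.276 ± 0.14) and CLDN4 (0.0903 ± 0.0202), sealing proteins of epithelial tight junctions, were near the bottom, and KRT7 and CLDN7 were not among the listed genes.

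Markers of other cell types were listed in part. Of 18 basal and myoepithelial markers 8 were listed and 0 reached 10 RPKM. ACTA2, smooth muscle actin, was the highest at 6.95 ± 2.46, and the defining KRT5, KRT14 and TP63 were not among the listed genes. Of 18 mesenchymal and fibroblast markers 12 were listed, with a median of 4.55 RPKM, also under that of all genes, and 5 reached 10 RPKM, namely VIM, CDH2, SNAI2 (11.3 ± 2.27), FN1 (10.3 ± 1.06) and TWIST1 (10.2 ± 1.58). SNAI2 and TWIST1 are transcription factors of mesenchymal cells that repress E-cadherin, and FN1 encodes fibronectin. ZEB1, another repressor of E-cadherin, was at 7.22 ± 0.549, while ZEB2 (1.09), COL1A1 (1.1), SPARC (1.0), SNAI1 (0.611) and PDGFRA (0.517) were lower. The fibroblast genes DCN, LUM, COL1A2, PDGFRB and THY1 were not among the listed genes. Leukocyte markers were 4 of 16 listed, with CD14, the highest, at 0.323 ± 0.138, a summed level of 0.623 to 1.1 RPKM per library, and PTPRC and CD3E not listed. Endothelial markers were 3 of 8 listed, with FLT1, the highest, at 1.28 ± 0.144 RPKM and PECAM1 and CDH5 not listed. Adipocyte markers were 2 of 6 listed, with LPL at 2.58 ± 0.488 and PLIN1 at 0.37 ± 0.0403, and ADIPOQ not listed.

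SAMHD1, the dNTP hydrolase that the series removed in its KO clones, stood close to the median gene in WT. It was at 4.95, 5.12, 4.56 and 5.15 RPKM in experiments 10, 11, 15 and 16, rank 6964, with a coefficient of variation (CV, the SD as a percent of the mean) of 5.48% over the 4 libraries.

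The most abundant RNAs came from the mitochondrial genome, from glycolysis and from the translation machinery. Mitochondrial genes filled the first 12 places by level and held 7.79%, 8.41%, 10.7% and 9.92% of the counts in experiments 10, 11, 15 and 16. MT-CO1, the catalytic subunit of cytochrome c oxidase, led with 14700, 14900, 19800 and 18300 RPKM. MT-CO2 (13500 ± 1220), MT-ATP6 (12000 ± 1580) of the ATP synthase and MT-CO3 (11100 ± 1100) followed, and the ranges of these neighbours over the libraries overlapped. MT-ATP8 overlaps MT-ATP6 and MT-ND4L overlaps MT-ND4 in the mitochondrial genome, so their levels share reads and are uncertain.

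The first nuclear gene by level was GAPDH, a glycolytic enzyme (chr12:6534517-6538371), at 2270, 2110, 2160 and 2060 RPKM. This order rests on the merged exon length, which was 2396 bases for GAPDH and 10063 for EEF1A1. By counts EEF1A1 was higher in each library, with 552807 or more against 255603 or fewer for GAPDH. The remaining 7 of the highest 20 genes were all parts of the translation machinery. They were RPS2 (1890 ± 98.3), RPL7A (1390 ± 71.6), RPS4X (1150 ± 54.6) and RPL41 (1070 ± 66.0) of the ribosome, and the elongation factors EEF1A1 (1520 ± 183), EEF2 (1440 ± 343) and EEF1G (1220 ± 163). Ribosomal protein genes held 9.21% to 10.3% of the counts per library. EEF1A1 and many ribosomal protein genes have near-identical processed copies elsewhere in the genome, so their counts carry that uncertainty.

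Messages of ribosomal proteins and elongation factors are known to start with a C followed by a run of pyrimidines, the terminal oligopyrimidine tract through which mTOR controls their translation. Of the 6 translation genes among the highest 20 with a promoter in RefSeq (GRCh38.p14), EEF1A1, EEF2, RPL7A and RPL41 have such a tract at the annotated start, and EEF1G and RPS4X do not. Their start windows are given, with those of GAPDH and VIM, to show the sequence beside the level. Each runs from 15 bases before the start site to the 15th base of the transcript, 5′ to 3′ on the gene's strand, and capitals mark a tract that begins at the annotated start.
EEF1A1: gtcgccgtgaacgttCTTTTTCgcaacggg
EEF2: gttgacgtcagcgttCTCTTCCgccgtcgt
RPL7A: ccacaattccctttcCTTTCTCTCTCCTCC
RPL41: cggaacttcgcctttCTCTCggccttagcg
EEF1G: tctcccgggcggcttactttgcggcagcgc
RPS4X: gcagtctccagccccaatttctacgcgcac
GAPDH: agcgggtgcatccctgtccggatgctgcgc
VIM: gtgcaatcgtgatctgggaggcccacgtat
The windows lie at chr6:73521018-73521047 on the minus strand, chr19:3985449-3985478 on the minus strand, chr9:133348203-133348232 and chr12:56116618-56116647 on the plus strand, chr11:62573877-62573906 and chrX:72277234-72277263 on the minus strand, and chr12:6535249-6535278 and chr10:17228226-17228255 on the plus strand, in that order. GAPDH and VIM, which are also abundant but encode an enzyme and a filament protein, have no tract there either. The RefSeq promoter table gives GAPDH a start inside the gene, at base 6535264 of chromosome 12, and not at the gene's outermost end at 6534517, which was not examined.

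Over 11326 nuclear genes with a RefSeq promoter, a start with C followed by 4 pyrimidines was found in 597 (5.27%), against 40 of the 100 most abundant genes with a promoter. It was found in 43 of 66 ribosomal protein genes (65.2%) and in 8 of 52 of the most abundant 100 that encode no ribosomal protein (15.4%). With the genes cut by level into 10 bins of equal size, the share was 13.4% in the highest bin and 3.18% in the lowest. The motif TATAAA, searched on the gene's strand from 40 to 20 bases before the start, was in 194 promoters (1.71%), in 8.0% of the 100 most abundant and in 4.15% of the lowest bin, so its share was higher at both ends of the ranking than over all promoters. The letters describe the annotated window only, and the start sites used by these cells were not measured.

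**Figure D2:**
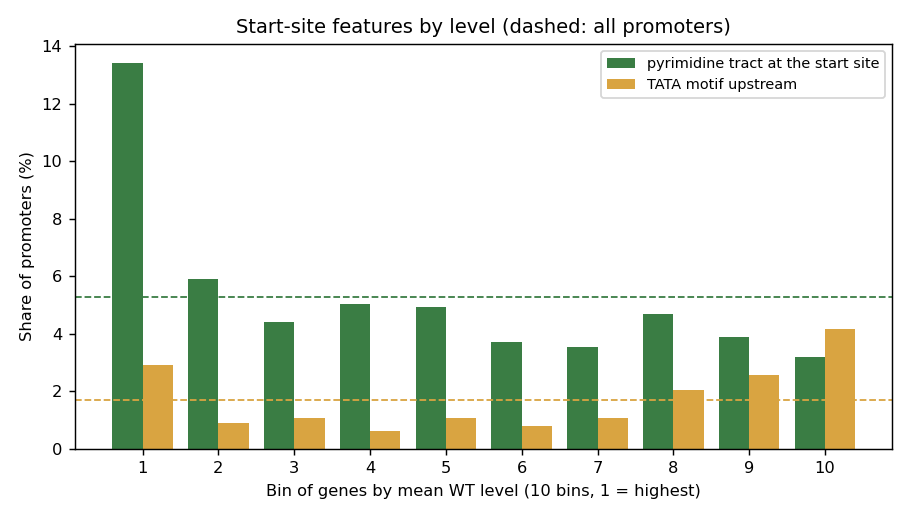
Share of promoters with a pyrimidine tract at the annotated start site (green) and with the motif TATAAA upstream (yellow), in percent, for 10 bins of genes by mean WT level, with dashed lines for all promoters. The tract is at 13.4% in the highest bin and at 3.18% in the lowest, and the TATA motif is at 2.92% in the highest and 4.15% in the lowest.

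Receptors were mostly of low level. Of 48 nuclear receptors, the transcription factors that bind hormones and other small ligands, 40 were listed, with a median of 1.7 RPKM, and 5 reached 10. NR2F6, an orphan receptor, led at 24.3, 29.0, 26.6 and 22.1 RPKM, followed by RXRB (14.9 ± 1.94), the shared partner of many receptors, the clock repressor NR1D2 (12.8 ± 1.26) and NR2F2 (12.7 ± 1.46). The ranges of RXRB, NR1D2 and NR2F2 overlapped. ESR1 was the lowest of the 40. The glucocorticoid receptor NR3C1 stood at 6.84 ± 0.735 RPKM, above PGR in every library.

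Of 58 receptor tyrosine kinases 47 were listed, with a median of 2.03 RPKM, and 3 reached 10. EPHB4, a receptor for ephrin-B2, was at 23.9, 27.8, 21.9 and 21.3 RPKM and stood above the next kinase in each library. The pseudokinase PTK7 of planar cell polarity (13.6 ± 0.924), FGFR3 (11.2 ± 0.629) and EPHA2 (8.46 ± 0.953) followed. ERBB2 (HER2) stood at 7.46, 8.11, 7.57 and 7.63 RPKM, while its main dimerisation partner ERBB3 had 51 to 98 counts and stood at 0.094, 0.102, 0.154 and 0.161 RPKM. ERBB2 was 47.3 to 79.3 times ERBB3 within a library. EGFR was at 2.27 ± 0.102, IGF1R at 6.3 ± 0.45 and MET, the receptor of hepatocyte growth factor, at 5.56 ± 1.04 RPKM. KDR, the main VEGF receptor of endothelium, was the lowest at 0.0357 ± 0.0198.

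Cytokine receptors were listed for 32 of 48 genes, with a median of 1.94 RPKM. Both chains of the interferon gamma receptor were among the highest, IFNGR2 at 18.8 ± 1.68 and IFNGR1 at 9.07 ± 1.13, together with IL13RA1 (13.1 ± 1.05) and the shared signal chain of the IL-6 family, IL6ST (5.39 ± 0.427). The growth hormone receptor GHR, of the same family as the prolactin receptor, stood at 1.39 ± 0.357 RPKM. The common chains CSF2RB and IL2RG of leukocyte receptors were not among the listed genes. Of 14 TGF-beta family receptors 13 were listed, led by the type I receptors ACVR1B (11.4 ± 0.462) and TGFBR1 (8.4 ± 1.29). Of 29 TNF receptors 18 were listed, led by the TRAIL death receptor TNFRSF10B at 27.1, 31.9, 28.6 and 29.2 RPKM and by TNFRSF10D (18.7 ± 2.6), a TRAIL decoy. All 9 NOTCH ligands and receptors were listed, with a median of 5.91 RPKM and NOTCH2 (10.7 ± 0.838) and JAG2 (10.4 ± 0.309) first, in ranges that overlapped. WNT ligands and receptors were listed for 30 of 42 genes, and the receptors FZD6 (11.2 ± 0.923) and FZD8 (8.41 ± 1.45) were the highest.

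**Figure D3:**
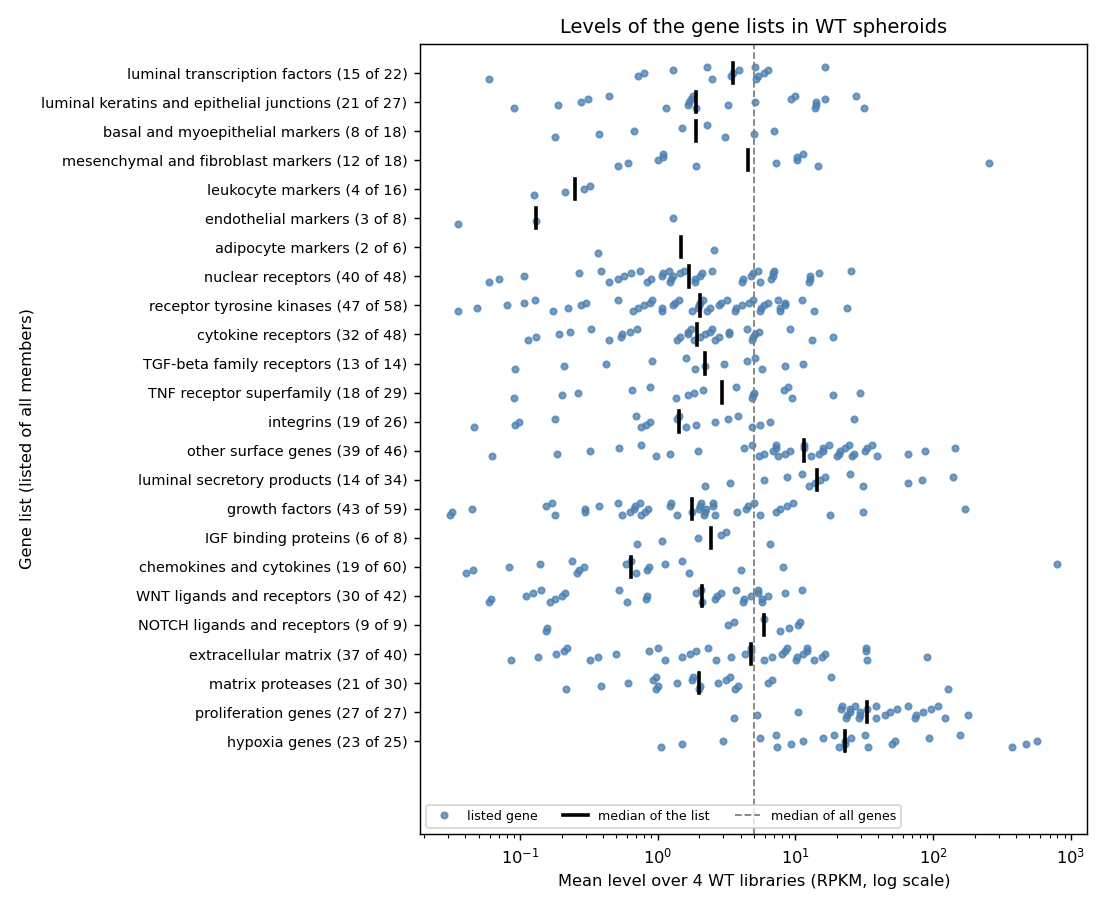
Mean level over the 4 WT libraries of each listed gene (points), by gene list, in RPKM on a log axis, with the median of each list (bar) and of all genes (dashed line, 5.0 RPKM). The numbers beside each name are the listed and all members, and proliferation genes, hypoxia genes, other surface genes, secretory products and NOTCH genes have medians to the right of the line.

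At the cell surface, 39 of 46 genes that are neither receptors of the groups above nor integrins were listed, with a median of 11.5 RPKM. BSG (basigin), a partner of lactate transporters, was the highest at 140, 146, 147 and 139 RPKM, and the tetraspanin CD63 was at 66.1 ± 4.4. The class I antigen-presenting gene HLA-C was at 87.5 ± 6.62, and its invariant partner B2M at 35.9 ± 1.44. HLA genes are polymorphic and share sequence, so the level of HLA-C is uncertain. CD274 (PD-L1) was the lowest listed surface gene at 0.0624 ± 0.0349, and MUC1, a mucin of luminal surfaces, was at 0.523 ± 0.0489. CD24 (11.5 ± 2.05) stood above CD44 (1.23 ± 0.249), the hyaluronan receptor, in each library. Integrins were listed for 19 of 26 genes. The common beta chain ITGB1 was at 27.4, 24.7, 26.0 and 27.4 RPKM, well above its partners ITGA5 (6.58 ± 0.309) and ITGA6 (4.83 ± 0.553), and ITGB4, the hemidesmosome chain, was at 0.179 ± 0.0525.

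Secreted products fell into 2 kinds. Of 34 products known from luminal cells 14 were listed and all 14 reached 1 RPKM. They were led by the lysosomal precursor PSAP (141, 152, 134 and 134 RPKM), LGALS3BP (83.4 ± 6.09), the protease inhibitor TIMP1 (65.7 ± 2.68) and progranulin, GRN (31.0 ± 3.84), which many cell types make. The estrogen target CTSD was at 25.0 ± 2.78, while TFF1, TFF3, AGR2, PIP, AZGP1 and SCGB2A2, products more particular to the breast or to secretory epithelium, were not among the listed genes. Among 43 of 59 growth factors that were listed, with a median of 1.78 RPKM, midkine (MDK) stood far above the rest at 138, 174, 195 and 174 RPKM. VEGFB was at 17.8 ± 1.53, BMP7 at 9.66 ± 0.645 and VEGFA, the hypoxia-induced angiogenic factor, at 5.53 ± 0.229. IGF binding proteins, which hold the growth factor outside the cell, were listed for 6 of 8 genes, with IGFBP2 first at 6.5 ± 1.02 and IGFBP3 last at 0.707 ± 0.172.

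Of 60 chemokines and cytokines 19 were listed. MIF, a constitutively made cytokine, was at 682, 788, 950 and 760 RPKM and ranked 28th of all genes. The next were CXCL16 (8.17 ± 0.644) and CSF1 (4.05 ± 0.465), and 13 of the 19 stood under 1 RPKM. IL12A, a subunit shared by IL-12 and IL-35, was at 2.1, 1.37, 1.61 and 1.68 RPKM. CXCL8 (IL-8) had 92, 43, 91 and 107 counts and stood at 0.767, 0.337, 0.88 and 0.798 RPKM, lowest in experiment 11. IL6, IL1A, IL1B and TNF were not among the listed genes.

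Of 40 matrix genes 37 were listed, with a median of 4.73 RPKM, and 12 reached 10. TNC, the adhesion-modulating tenascin C, was the highest at 90.4, 93.7, 85.5 and 88.5 RPKM, followed by the laminin chain LAMC1 (33.3 ± 3.16) and nidogen, NID1 (32.7 ± 4.24), of basement membranes and by COL6A1 (32.7 ± 2.34) of the interstitial matrix, whose ranges overlapped. Of 30 matrix proteases 21 were listed. ADAMTS1, which cleaves proteoglycans, was at 147, 116, 124 and 124 RPKM, rank 207, and the next, ADAM15, at 18.2 ± 0.967. The collagenases MMP1 and MMP13 and the gelatinase MMP9 were not among the listed genes.

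Genes of cell division and of glycolysis were high on day 4. All 27 proliferation genes were listed and 25 reached 10 RPKM, with a median of 33.1. The list includes the cell-cycle inhibitors CDKN1A (29.3), CDKN2A (29.3) and CDKN1B (5.29). The replication genes MCM7 (178 ± 21.1), PCNA (122 ± 3.01) and TYMS (95.7 ± 6.52) and the mitotic ubiquitin enzyme UBE2C (109 ± 3.39) led, and the division marker MKI67 was at 29.1, 30.8, 27.5 and 28.9 RPKM. Of 25 genes known to respond to hypoxia 23 were listed, with a median of 22.8 RPKM. The glycolytic enzymes ENO1 (564 ± 51.9), ALDOA (474 ± 45.1), LDHA (371 ± 58.1) and PGK1 (157 ± 20.1) were the highest, CA12 was the lowest at 1.05 ± 0.152, and CA9, a carbonic anhydrase of strongly hypoxic cells, was not among the listed genes. Without cells grown in another way, these levels cannot be tied to the spheroid culture.

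The libraries of experiments 15 and 16 were the most alike. Over 13801 genes with a mean count of at least 10, the median CV over the 4 libraries was 9.47%, and 7444 genes (53.9%) stayed under 10%, while 184 (1.33%) exceeded 50%. Between 2 libraries the median CV was 4.16% for experiments 15 and 16, 7.46% for experiments 10 and 11 and 7.2% to 9.93% across these pairs. Experiment 10 was about as far from 11 as from 16 (7.2%) by this measure, and closer to 11 by the chi-square for each degree of freedom (25.1 against 40.1). Spread followed depth, with a median CV of 25.9% at mean counts of 10 to 100, where counting alone gives about 15.7%, and of 7.24% above 10000, where it gives about 0.781%. The steadiest genes at a mean count of at least 100 were PIAS3 (13.7 ± 0.019 RPKM), ZBTB34, NSD2, ACTR8 and CDC42EP3, with CVs of 0.139% to 0.51%, below what counting alone gives at their depth. The most variable were ATP5MF-PTCD1 (3.9, 0.27, 0.42 and 1.04 RPKM), DNAJC25-GNG10, ISY1-RAB43 and TPTEP2-CSNK1E, which are read-through genes sharing exons with their neighbours, and NPIPA8, of a family of near-identical copies. Their CVs were 83.2% to 120%, and how the counting split shared reads among them is not given in the sources used here.

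**Figure D4:**
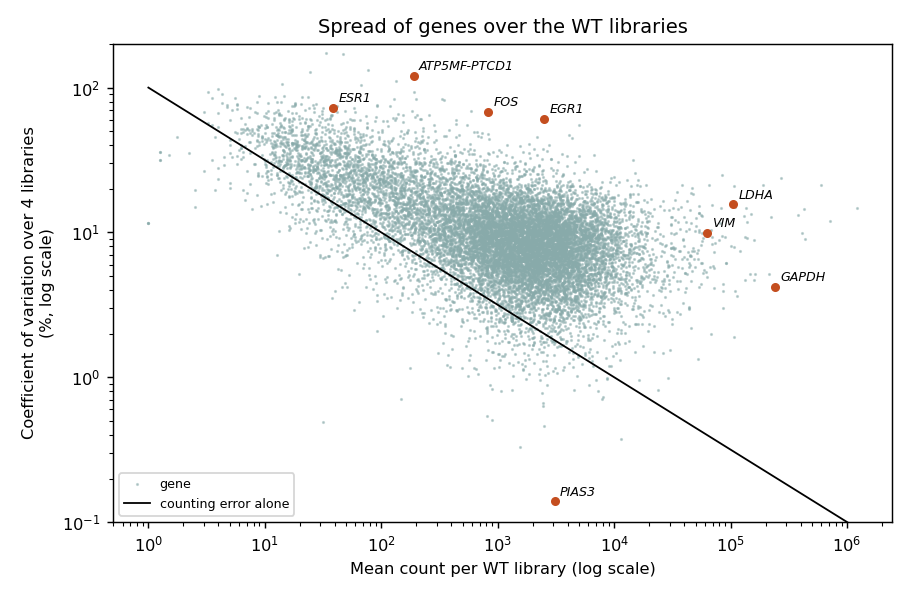
Coefficient of variation over the 4 WT libraries (percent) against the mean count per library for each gene, both on log axes, with the line that counting error alone gives. The median falls from 25.9% at mean counts of 10 to 100 to 7.24% above 10000, and EGR1, FOS and ESR1 lie above most genes of their depth.

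Differences between WT of experiments 15 and 16 and WT of experiments 10 and 11 were tested with edgeR's quasi-likelihood test, with Benjamini-Hochberg adjustment across the whole table. The experiment number is the only difference the labels give between these libraries, and it is not a condition of the study. At an adjusted p under 0.05, 1208 of 13920 genes were called, which was 8.68% of genes tested, with 650 higher in experiments 15 and 16 (4.67%) and 558 lower (4.01%). The number depended on single libraries. It was 4546 without experiment 10, 2426 without experiment 11, 389 without experiment 15 and 285 without experiment 16, where the lone library of a pair is assumed to vary like the other pair. Of the 64 called genes with values in every library here, 30 stayed called without any 1 of the 4 libraries, and those named next as called are among these 30 unless stated.

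EGR1, FOS and FOSB, which encode transcription factors that are made within minutes of a stimulus, were among the largest called decreases in experiments 15 and 16 at a mean count of at least 100. EGR1 was at 24.3 and 26.7 RPKM in experiments 10 and 11 and at 7.55 and 8.24 in experiments 15 and 16 (log2 difference −1.69, edgeR adjusted p 4.75e-07). FOS was at 9.12 and 8.14 against 2.21 and 2.28 (−1.94, edgeR adjusted p 4.75e-07), and FOSB at 2.62 and 1.74 against 0.356 and 0.528 (−2.28, edgeR adjusted p 9.71e-05). The values of the pairs did not overlap for any of these genes. NMNAT2, an NAD-synthesising enzyme of neurons (−1.93), and BICDL1 (−1.45) were the other 2 of the 5 largest called decreases at that count. NR4A1 (−0.32, edgeR adjusted p 0.0569), NR4A2 (−0.19, edgeR adjusted p 0.542) and NR4A3 (−0.01, edgeR adjusted p 0.988), orphan nuclear receptors that are also made early after a stimulus, did not pass the test. The 5 largest called increases at a mean count of at least 100 were in NPIPA8 (3.13), in COL2A1, the collagen of cartilage, at 0.642 and 0.902 against 2.95 and 3.14 RPKM (1.98, edgeR adjusted p 6.24e-06), in the fucosyltransferase FUT9 (1.85), in the homeobox gene BARX1 (1.77) and in ZNF595 (1.71).

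Among the lineage genes, those called in the pairs did not share a direction. Of 15 listed luminal transcription factors 1 was called higher and 2 lower (3 of 15, against 8.68% of all genes). KLF5, a factor of proliferating epithelium, was higher in experiments 15 and 16 (2.36 and 2.04 against 4.66 and 4.56 RPKM, log2 difference 1.07, edgeR adjusted p 0.000185). ESR1 was lower (−1.85, edgeR adjusted p 0.00969), with an adjusted p of 0.0603 without experiment 16, and so was TBX3 (−0.43), which was no longer called without experiment 15 or without experiment 16. Of 21 luminal keratins and junction genes 0 were called higher and 4 lower (4 of 21), namely ESRP2, a splicing factor of epithelial cells (−0.9, edgeR adjusted p 0.00234), and KRT18 (−0.39), JUP (−0.43) and DSP (−0.35), of which KRT18, JUP and DSP were no longer called without experiment 15 or without experiment 16. Of 12 mesenchymal markers 3 were called higher and 2 lower (41.7%). SPARC was at 0.41 and 0.538 against 1.54 and 1.51 RPKM (1.69, edgeR adjusted p 0.00013) and PDGFRA at 0.301 and 0.27 against 0.802 and 0.695 (1.39, edgeR adjusted p 0.000327), while COL3A1 was lower (−0.87, edgeR adjusted p 0.0014). TWIST1 (0.38) and SNAI2 (−0.51) were called as well, but no longer without experiment 15 or without experiment 16. VIM (−0.19, edgeR adjusted p 0.155) and CDH2 (0.17, edgeR adjusted p 0.231) did not pass the test.

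Among abundant genes, EEF2 was lower in experiments 15 and 16, at 1640 and 1810 against 1160 and 1130 RPKM (log2 difference −0.59, edgeR adjusted p 0.000192), while MT-CO1 (0.36, edgeR adjusted p 0.00474) and MT-ND4 (0.52, edgeR adjusted p 0.000871) were higher. The share of mitochondrial counts was higher in those 2 libraries as well, and its part in the differences of other genes was not tested. GAPDH (−0.05, edgeR adjusted p 0.667), SAMHD1 (−0.05, edgeR adjusted p 0.784), PGR (0.06, edgeR adjusted p 0.772) and GATA3 (−0.14, edgeR adjusted p 0.491) did not pass the test. Of 47 receptor tyrosine kinases 5 were called higher and 2 lower (14.9%, against 8.68% of all genes), with KIT, the stem cell factor receptor, at 0.726 and 0.634 against 1.08 and 1.1 RPKM (0.68, edgeR adjusted p 0.00582). Of 37 matrix genes 6 were called higher and 4 lower (27.0%). In the list of 27 proliferation genes, cell-cycle inhibitors included, 1 was called higher and 2 lower (11.1%, near the share of all genes).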

How the data were processed

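RNA of spheroids was sequenced from stranded mRNA libraries. The authors used HISAT2 for alignment to GRCh38 with NCBI gene models, and StringTie is named in the submitters' processing notes without a role. The deposited values are raw counts per NCBI gene, without normalization, and the counting program is not given in the sources used here. For RNA extraction the labels give the Maxwell HT simplyRNA kit and the methods the NucleoSpin kit.

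The 4 WT columns were analysed, matched by experiment number. Symbols and positions came from RefSeq (13883 of 13920 genes) and merged exon lengths from GENCODE 44 (13816 genes, at least 99.94% of counts). RPKM used TMM factors (0.996 to 1.01). WT of experiments 15 and 16 was tested against 10 and 11 with edgeR 4.0.16 in R 4.3.3, with DESeq2 1.42.0 and limma 3.58.1 as alternatives, besides RLE factors, filters, other lengths, TPM and each library left out. The test was checked on simulated data. Values were summarised with pandas 2.3.3.

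The gene lists, members and rules were chosen with earlier results of these data known. The rule named the 20 highest genes, the given markers and SAMHD1, the 4 highest and the lowest listed gene of each list, the 5 largest and 5 smallest CVs and the 5 largest called differences in each direction without overlap, both at a mean count of at least 100. Genes outside it were chosen after their values were seen. In the report these are ZEB1, ZEB2, COL1A1, SNAI1, TWIST1, SPARC, COL3A1, CLDN3, KLF5, TBX3, ESRP2, JUP, DSP, NR3C1, ERBB2, ERBB3, IGF1R, MET, KIT, GHR, B2M, CD24, CD44, MUC1, CTSD, VEGFA, CXCL8, MKI67, CDKN1A, CDKN1B, CDKN2A and NR4A1 to NR4A3. In the closing section they are STC2, LIN28B and the families of the other observations. Some genes that the rule or the families name are not reported here. Raw reads were not analysed here.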

Additional observations from a re-analysis of the deposited data

Results flagged for a closer look

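In 8 of 278 genes with values per library, 1 library stood far from the rest (Dixon's test at the 95% level), and chance alone flags about 1 in 20 groups, which is more than the 8 of 278 found. In 6 of the 8 it was experiment 11. There, GATA3 was high at 7.26 RPKM (others 6.03 to 6.1). In the same library LDHA was low at 284 RPKM (others 397 to 405), as were PGK1 at 127 (164 to 169), STC2, a secreted stress glycoprotein, at 12.0 (17.9 to 18.2), VEGFA at 5.18 (5.63 to 5.65) and B2M at 33.7 (36.4 to 36.7). In experiment 10 HOXA5 was low at 26.8 RPKM (others 33.7 to 34.0) and the neural intermediate filament gene NES at 2.35 (3.33 to 3.5).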

How the results depend on the processing

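RLE factors, DESeq2, limma-trend and a filter at a mean count of 10 gave 1195 to 1224 called genes against 1208, and leaving out 1 library gave 285 to 4546. Of 64 called genes with values per library, 64 kept the call without experiment 10 or 11, 35 without experiment 15 and 32 without experiment 16, and none changed sign. No paired analysis was possible because each WT library came from an experiment of its own.

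Gene length moved the levels. Genes at 100 RPKM or more were 277 with merged exons, 424 with the longest transcript and 1850 with the median transcript length, those at 1000 were 23, 40 and 115, and those at 10 rose from 4111 to 8902 with the median length. The median over the named nuclear genes was 5.88 RPKM, and 7.37 with the longest and 16.1 with the median transcript length. It was 28.7 as TPM over genes outside the mitochondrial genome, which keeps the merged exons and changes the unit, and 5.94 to 5.99 RPKM without 1 library. Of the highest 20 genes, 18 were shared with the longest and 15 with the median length. The median CV was 7.5% to 9.71% without 1 library. The depth limits genes such as ESR1, CDH1 and EPCAM, with under 100 counts in each library.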

Other observations

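Complete gene families were examined after the values above were seen. The HOX genes, which set position along the body axis, were listed for 37 of 39 members, 34 of them at 1 RPKM or more and 11 at 10 or more, with a median of 6.65 RPKM against 5.0 for all genes. All 4 clusters were represented. HOXA9 was the highest at 32.8, 36.6, 35.4 and 34.0 RPKM, followed by HOXA5 (32.1 ± 3.54), HOXB9 (27.1 ± 1.38) and HOXD4 (26.9 ± 0.518). The summed level per library was 133 to 153 RPKM for the HOXA cluster, 87.4 to 94.6 for HOXD, 76.6 to 87.8 for HOXB and 32.1 to 36.3 for HOXC, and of these ranges only those of HOXB and HOXD overlapped. Posterior members were expressed beside anterior ones, with HOXA13 at 12.2 ± 3.9 and HOXD13 at 11.1 ± 1.14. HOXA13 was higher in experiments 15 and 16 (10.3 and 7.65 against 15.2 and 15.7 RPKM, log2 difference 0.79, edgeR adjusted p 0.00167).

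Intermediate filament genes other than keratins were listed for 12 of 15 members. Beside VIM and the nuclear lamins LMNB1 (79.3 ± 1.42) and LMNB2 (78.8 ± 9.46), 3 of 5 filament genes of neurons stood above the median of all genes. INA, alpha-internexin, was at 32.1, 34.9, 27.8 and 28.4 RPKM, NEFL at 16.4, 12.9, 14.7 and 15.1 and NEFM at 8.85, 7.19, 9.63 and 9.97, and each of these was above KRT8 in every library. PRPH, peripherin, was at 0.334 ± 0.0502, and NEFH was not among the listed genes. The rank of INA and NEFL fell from 1152 and 2805 with merged exons to 5311 and 6343 with the median transcript length. The glial gene GFAP was at 0.0252 ± 0.0129.

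Of 19 SOX genes 15 were listed, led by SOX17 (52.3 ± 4.69), a factor known from endoderm, SOX4 (47.4 ± 5.09) and SOX11 (24.7 ± 5.27), and SOX2 was at 4.29 ± 0.394. PAX2, a factor of kidney development, was at 1.74, 1.84, 1.17 and 0.856 RPKM and PAX6, of eye and brain, at 1.24 ± 0.0323. Of 18 classical cadherins 9 were listed and 2 reached 1 RPKM, CDH2 and CDH24 (9.14 ± 1.47). The RNA-binding protein LIN28B, which blocks let-7 microRNAs, was at 7.83, 7.54, 7.42 and 8.28 RPKM.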
